A study of Mus musculus with 25 samples.

Results

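Ptpn6 encodes SHP-1, the tyrosine phosphatase whose deletion in neutrophils these libraries were made to study. It was examined here together with 8 other phosphatases found in leukocytes. The 9 genes were taken by name from the table of 35741 genes. They were the SHP phosphatases Ptpn6 and Ptpn11 and the other non-receptor tyrosine phosphatases Ptpn1, Ptpn12 and Ptpn22. With them came the receptor tyrosine phosphatases Ptprc and Ptprj and the SHIP lipid phosphatases Inpp5d and Inppl1. All 9 were among the 16206 genes that passed the filter on low counts. Ptpn6 lay lower in every library that carried its deletion, and Ptpn22 was the other gene of the set that passed a test of that deletion.

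The libraries were bulk messenger RNA of bone marrow neutrophils from female C57BL/6J mice of 6 to 13 weeks, taken from the interface of 68% and 78% Percoll, and the study asked how Ptpn6 restrains inflammation that runs through caspase-8 or through Ripk3 with Mlkl. Groups with deleted Ptpn6 were Casp8ΔPMN Ptpn6ΔPMN (1 library), Mlkl-/- Casp8ΔPMN Ptpn6ΔPMN (2), Ripk3-/- Mlkl-/- Casp8ΔPMN Ptpn6ΔPMN (2), Ripk3-/- Mlkl-/- Ptpn6ΔPMN (3), Mlkl-/- Ptpn6ΔPMN (2) and Ripk3-/- Ptpn6ΔPMN (3). Groups with intact Ptpn6 were Ripk3-/- Mlkl-/- (2), Mlkl-/- (3), Ripk3-/- (3) and wild-type (3). The ΔPMN sign marks conditional deletion in neutrophils, and the Cre driver is not given in the sources used here. The labels mark mice as inflamed only for the Casp8ΔPMN Ptpn6ΔPMN library, and 1 further library whose labels conflict was put in no group. Among these, no library joined the conditional deletion system to intact Ptpn6, and no group was Ptpn6ΔPMN with Ripk3, Mlkl and Casp8 all intact, so the loss of Ptpn6 cannot be told apart from Cre or from DNA carried with the floxed gene.

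SHP-1 and SHP-2 carry paired SH2 domains that dock on phosphorylated tyrosines, SHP-1 mostly on the inhibitory motifs of immune receptors and SHP-2 mostly on growth factor and cytokine receptors and their adaptors. CD45 and CD148 span the membrane and act on Src family kinases, which start signalling from integrins and Fc receptors in neutrophils. SHIP1 and SHIP2 act on a lipid instead: they remove the 5-position phosphate from the product of phosphoinositide 3-kinase. SHP-1 and SHIP1 are best known in myeloid cells as brakes on these signals.

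Library totals ran from 21598063 to 23187557 estimated counts. The TMM factors, which scale these totals to effective sizes, ran from 0.7995 to 1.185, both in Ptpn6ΔPMN libraries. Groups of libraries can therefore overlap in estimated counts and not in scaled levels. The neutrophil list of 13 markers was fully measured and summed to between 62060 and 142000 CPM (counts scaled to the effective size of each library) in the assigned libraries. Ripk3 was at 0 to 0.154 CPM in libraries labelled Ripk3-/-, against 2.51 to 10.5 CPM in the others. Mlkl overlapped, at 0.230 to 1.64 CPM in Mlkl-/- libraries against 1.40 to 4.85 CPM in the others, and Casp8 also overlapped, at 16.3 to 23.5 CPM with Casp8ΔPMN against 21.3 to 37.9 CPM without it. The 12 B cell markers were detected in every library, and their sum ran from 478 to 2218 CPM in Ptpn6ΔPMN libraries and from 714 to 1592 CPM in libraries with intact Ptpn6. In bulk samples, fewer cells of a type and less RNA per cell cannot be told apart.

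The 7 tyrosine phosphatases share the signature of their active site, a short loop in which a cysteine attacks the phosphate and an arginine holds it. The coding sequence of this loop is shown because it is the feature that unites 7 of the 9 genes and sets the SHIPs apart. It was found by a search of each gene's longest coding sequence in GENCODE vM21 (GRCm38) for an isoleucine or valine, a histidine, the cysteine, any 5 residues, the arginine and a serine or threonine. Each sequence is 30 bases of the sense strand, and the capitals mark the cysteine codon and the arginine codon.
Ptpn6: gtgcatTGCagcgctggcatcggcCGCacg
Ptpn11: gttcacTGCagcgctgggattggcCGGaca
Ptpn1: gtccacTGCagcgccggcatcgggAGGtca
Ptpn12: attcatTGCagtgcaggctgtggaCGAaca
Ptpn22: attcacTGCagtgccggctgcggaAGGaca
Ptprc: gtgcacTGCagtgctggtgttgggCGTaca
Ptprj: gtgcatTGCagtgctggggttggaAGGacg
The cysteine is codon 455 in Ptpn6 and codon 463 in Ptpn11, and the paired loops differ at 6 of 30 bases. Ptpn12 and Ptpn22 differ at 5 bases, fewer than any other pair of the 7. The pattern had 1 match in each of these genes, Ptprc and its tandem phosphatase domains included, and 0 matches in Inpp5d and in Inppl1. No run of 31 bases in any annotated Ptpn6 transcript occurred in a transcript of another member, while Ptpn22 shared 2 such runs with Ptpn11 and 2 with Ptprc. Between the chosen transcripts the longest shared run was 21 bases for Ptpn6, with Ptprj, and 20 bases for Inpp5d and Inppl1.

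Per base of transcript, Ptprc and Ptpn6 stood well above the other members in wild-type neutrophils. Ptprc, which encodes the leukocyte common antigen CD45, had 283 ± 8.40 CPM per kilobase (SD, n = 3) and Ptpn6 had 258 ± 9.62. Ptpn1 followed at 74.7 ± 7.07 and Inpp5d at 66.3 ± 4.86, whose spreads leave their order unclear, and then Ptpn12 at 48.6 ± 3.34 CPM per kilobase. Ptprj at 27.4 ± 1.91 and Ptpn22 at 23.4 ± 0.482 came next, above Ptpn11 at 13.7 ± 1.01. Inppl1 was lowest at 1.35 ± 0.173 CPM per kilobase. SHP-1 mRNA was thus above SHP-2 mRNA, and SHIP1 mRNA above SHIP2 mRNA, by far more than the spread between wild-type libraries. These levels use the length of 1 chosen transcript per gene, and how the deposited counts combine isoforms is not given in the sources used here.

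Ptpn6 spans chr6:124720707-124738714 on the minus strand (GRCm38). It stood at 295, 187 and 201 CPM in Ripk3-/- Ptpn6ΔPMN libraries, against 517, 589.8 and 534 CPM in Ripk3-/- libraries. It stood at 182 and 193 CPM in Mlkl-/- Ptpn6ΔPMN libraries, against 490.1, 707 and 645 CPM in Mlkl-/- libraries. In the absence of both Ripk3 and Mlkl it stood at 255, 314 and 309 CPM with Ptpn6ΔPMN, against 631 and 551 CPM without. Deleted and intact libraries did not overlap in any background, which held for 9.22% of all genes in Ripk3-/-, 35.7% in Mlkl-/- and 13.4% in Ripk3-/- Mlkl-/-. Every deleted library kept a measurable amount of Ptpn6 mRNA.

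With Casp8 deleted as well, Ptpn6 stood at 234 and 239 CPM in Mlkl-/- Casp8ΔPMN Ptpn6ΔPMN and at 278 and 255 CPM in Ripk3-/- Mlkl-/- Casp8ΔPMN Ptpn6ΔPMN. The single Casp8ΔPMN Ptpn6ΔPMN library, from a mouse labelled as inflamed, had the lowest value of all at 120.2 CPM. Over the 13 deleted libraries the median was 239 CPM and the highest value 314, against a lowest value of 490.1 and a median of 589.8 CPM over the 11 libraries with intact Ptpn6.

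**Figure D1:**
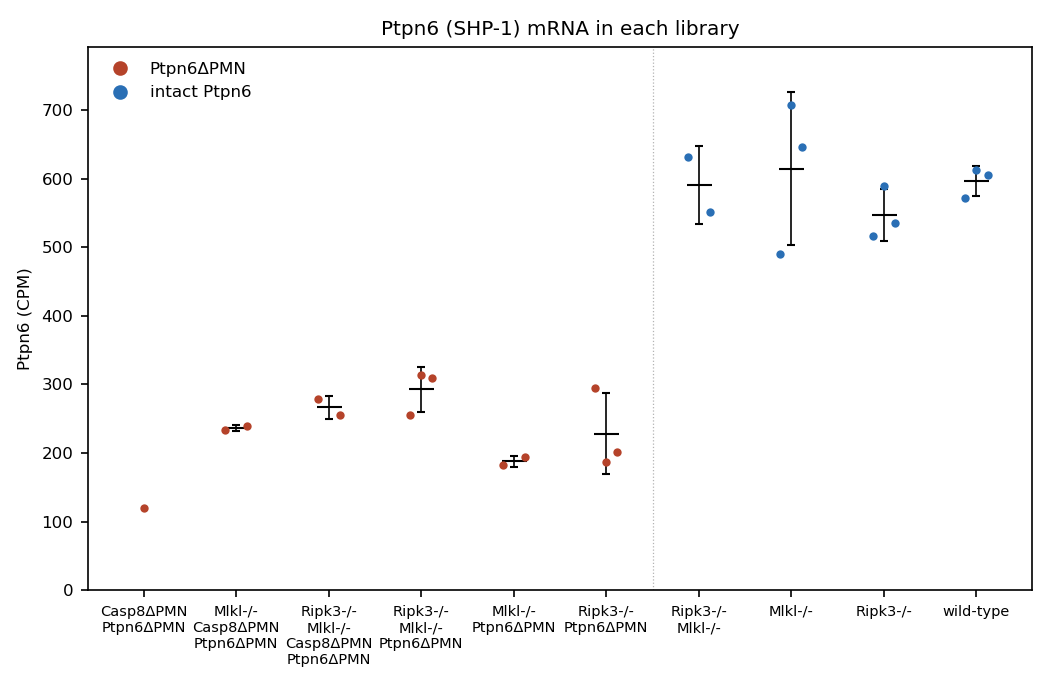
Ptpn6 level in CPM (vertical axis, from 0) in each of the 24 assigned libraries by genotype group, with Ptpn6ΔPMN groups on the left and groups with intact Ptpn6 on the right of the dotted line. Points are libraries, bars the mean and SD of groups with 2 or 3 libraries; the deleted libraries reach 314 CPM at most and the intact ones 490.1 CPM at least.

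Expressed as a share of the mean of its own control background, the Ptpn6 mRNA that remained was 41.6% ± 10.8 (SD, n = 3) in Ripk3-/- Ptpn6ΔPMN and 30.6% ± 1.34 (n = 2) in Mlkl-/- Ptpn6ΔPMN. It was 49.5% ± 5.52 (n = 3) in Ripk3-/- Mlkl-/- Ptpn6ΔPMN. Replicate 1 of Ripk3-/- Ptpn6ΔPMN kept 54.0%, and the 2 others of its group 34.2% and 36.8%. The Casp8ΔPMN Ptpn6ΔPMN library kept 20.2% of the wild-type mean, a control that shares none of its deletions. The deposited table has 1 value per gene. Transcripts that lack the deleted part of Ptpn6 and intact transcripts from undeleted cells therefore cannot be told apart.

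In neutrophils that lacked Ripk3, Ptpn6 fell by 1.26 in log2 units (SE 0.16, edgeR adjusted p = 0.00121, lower in 3 of 3 libraries). It was the 1 member of 9 that passed, where 0.0185% of all genes tested were called (3 of 16206). The call was lost in a fit of only those 6 libraries (log2 change -1.25, edgeR adjusted p = 0.38). Without Ripk3-/- Ptpn6ΔPMN replicate 1, the library that kept the most Ptpn6 mRNA in its group, 156 genes were called in all.

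Without Mlkl, Ptpn6 fell by 1.71 (SE 0.18, edgeR adjusted p = 0.000153) and Ptpn22 was called too, so that 2 of 9 members passed against 1.51% of all genes (244 of 16206, but 2 without Mlkl-/- Ptpn6ΔPMN replicate 2). Without both Ripk3 and Mlkl, the log2 change of Ptpn6 was -1.01 (SE 0.17, edgeR adjusted p = 0.0838), and 0 of 9 members passed against 0.00617% of all genes (1 of 16206). There, 830 genes had an unadjusted p under 0.05, and DESeq2 called 4, Ptpn6 among them (log2 change -1.02, DESeq2 adjusted p = 7.2e-05). Without Ripk3-/- Mlkl-/- replicate 3 the edgeR call was made as well (log2 change -1.11, edgeR adjusted p = 0.0477).

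Averaged over the 3 backgrounds, which uses the same libraries again, Ptpn6 fell by 1.33 (SE 0.098, edgeR adjusted p = 3.36e-07). Again Ptpn6 and Ptpn22 were the 2 members called, against 1.55% of all genes (251 of 16206, but 7 without Mlkl-/- Ptpn6ΔPMN replicate 2 and 1037 without Ripk3-/- Ptpn6ΔPMN replicate 1). The effect of the deletion was next compared between the backgrounds themselves. For Ptpn6 the F test of a difference among the 3 gave an edgeR adjusted p of 0.758, so the spread of log2 changes from -1.71 to -1.01 did not pass. No member passed, and 0% of all genes did by edgeR, with 1053 genes below 0.05 before adjustment and 32 by DESeq2.

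Libraries with both Casp8 and Ptpn6 deleted gave Ptpn6 changes from other mice, though set against the same controls. In Mlkl-/- neutrophils Ptpn6 fell by 1.38 (SE 0.18, edgeR adjusted p = 0.00308), the 1 member called where 0.0185% of all genes were (3 of 16206). That call was lost without Mlkl-/- Casp8ΔPMN Ptpn6ΔPMN replicate 2 (log2 change -1.39, edgeR adjusted p = 0.175). In Ripk3-/- Mlkl-/- neutrophils its log2 change was -1.15 (SE 0.19, edgeR adjusted p = 0.0506), and 0 members passed against 0.0123% of all genes (2 of 16206, 1301 at an unadjusted p under 0.05). DESeq2 called 13 genes there, with Ptpn6 at a DESeq2 adjusted p of 2.57e-05.

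Adding the Casp8 deletion to the Ptpn6 deletion left Ptpn6 without a called change. The log2 change was 0.33 (95% interval -0.07 to 0.74, edgeR adjusted p = 0.619) in Mlkl-/- Ptpn6ΔPMN and -0.14 (95% interval -0.51 to 0.24, edgeR adjusted p = 0.887) in Ripk3-/- Mlkl-/- Ptpn6ΔPMN. No member passed in either comparison, where edgeR called 0% of all genes. At an unadjusted p under 0.05 there were 1515 genes in the first and 750 in the second, and DESeq2 called 90 and 1. Across the 5 replicated Ptpn6ΔPMN groups, 0 of 9 members passed an F test of any difference, against 0.0247% of all genes (4 of 16206, with 2953 below 0.05 before adjustment and 870 by DESeq2). The residual level of Ptpn6 itself gave an edgeR adjusted p of 0.225 in that test.

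The genes next to Ptpn6 on the chromosome were measured to see whether they moved with it. Among the 5 nearest tested genes on each side (Phb2, Emg1, Lpcat3, C1ra and C1rl below, Grcc10, Atn1, Eno2, Spsb2 and Tpi1 above), 0 of 10 passed edgeR's test in any of 6 comparisons of deleted with intact Ptpn6, where between 0.00617% and 1.55% of all genes did. Their values lay mostly above 0. With the averaged deletion this held for 10 of 10, with a median log2 change of 0.20, against 50.2% of all genes above 0. In the other 5 comparisons, which reuse these libraries or their controls, it held for 7 to 9 of 10. For the averaged deletion, 3 of the 10 had an unadjusted p under 0.05 by edgeR, beside 15.5% of all genes. Averaged log2 changes were 0.52 for C1rl (edgeR adjusted p = 0.12), 0.35 for Tpi1 (edgeR adjusted p = 0.0937) and 0.27 for Grcc10 (edgeR adjusted p = 0.0973). Grcc10 lay above 0 in all 6, as did Phb2, C1ra, C1rl and Spsb2. Of the 10 genes Grcc10 had the lowest edgeR adjusted p, 0.0737, for Casp8 and Ptpn6 deletion in Mlkl-/- (log2 change 0.71). With intact Ptpn6, Grcc10 also lay above wild-type. It was called in Mlkl-/- (log2 change 0.56, edgeR adjusted p = 0.0492). It was not called in Ripk3-/- (0.52, edgeR adjusted p = 0.185) or in Ripk3-/- Mlkl-/- (0.36, edgeR adjusted p = 0.27).

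Ptpn11, which encodes SHP-2, lies at chr5:121130533-121191397 on the minus strand. It stood at 68.9, 84.5 and 75.8 CPM in Ripk3-/- Ptpn6ΔPMN libraries, against 81.9, 74.5 and 69.9 CPM in Ripk3-/- libraries. It stood at 88.0 and 91.1 CPM in Mlkl-/- Ptpn6ΔPMN libraries, against 74.1, 77.5 and 71.7 CPM in Mlkl-/- libraries. The first pair of groups overlapped and the second did not, with a log2 change of 0.27 in Mlkl-/- (95% interval 0.03 to 0.50, edgeR adjusted p = 0.211) that did not pass; in that comparison 35.7% of all genes had groups that did not overlap. Before scaling, the estimated counts of the second pair overlapped (1630 and 1774 against 1768, 1665 and 1524). Averaged over the backgrounds the log2 change of Ptpn11 was 0.12 (95% interval -0.01 to 0.25, edgeR adjusted p = 0.341). The level of SHP-2 mRNA spanned 1.32-fold from lowest to highest over the 24 assigned libraries, one of the narrowest ranges of the set.

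Ptpn22 encodes PEP, a leukocyte phosphatase that binds the kinase Csk and acts on Src family and Syk family kinases, and lies at chr3:103859795-103912247 on the plus strand. It stood at 54.6, 47.3 and 50.9 CPM in Ripk3-/- Ptpn6ΔPMN libraries, against 60.4, 77.3 and 64.2 CPM in Ripk3-/- libraries. It stood at 53.6 and 34.2 CPM in Mlkl-/- Ptpn6ΔPMN libraries, against 63.0, 69.8 and 87.1 CPM in Mlkl-/- libraries. Without Ripk3 and Mlkl it stood at 49.5, 68.4 and 69.5 CPM with Ptpn6ΔPMN, against 81.6 and 77.3 CPM without. All deleted libraries lay below all of their own controls in each background, where 9.22%, 35.7% and 13.4% of all genes had groups that did not overlap, and the lowest was Mlkl-/- Ptpn6ΔPMN replicate 2.

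Ptpn22 fell by 0.74 in Mlkl-/- neutrophils (SE 0.18, edgeR adjusted p = 0.0446) and by 0.50 averaged over the backgrounds (SE 0.098, edgeR adjusted p = 0.0188). Its log2 change was -0.40 in Ripk3-/- (SE 0.16, edgeR adjusted p = 0.755) and -0.35 in Ripk3-/- Mlkl-/- (SE 0.17, edgeR adjusted p = 0.846). The F test of a difference among backgrounds gave an edgeR adjusted p of 0.81, so the call in Mlkl-/- is not shown to set that background apart. Both calls rest in part on 1 library: without Mlkl-/- Ptpn6ΔPMN replicate 2 the log2 change was -0.45 in Mlkl-/- (edgeR adjusted p = 0.463) and -0.40 averaged (edgeR adjusted p = 0.118). The call in Mlkl-/- was also lost without any of Mlkl-/- replicates 1, 2 and 3 (edgeR adjusted p = 0.0588, 0.107 and 0.145) and with DESeq2 size factors (0.0553). With the compared libraries alone in the fit, the edgeR adjusted p was 0.0884 in Mlkl-/- and 0.0743 averaged.

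With Casp8 deleted as well, Ptpn22 stood at 61.5 and 62.1 CPM in Mlkl-/- Casp8ΔPMN Ptpn6ΔPMN, against the Mlkl-/- values above (log2 change -0.25, 95% interval -0.62 to 0.13, edgeR adjusted p = 0.517). It stood at 63.4 and 62.0 CPM in Ripk3-/- Mlkl-/- Casp8ΔPMN Ptpn6ΔPMN, where the log2 change was -0.34 (95% interval -0.75 to 0.07, edgeR adjusted p = 0.705). In both, the deleted libraries lay below their controls, as 34.5% and 40.1% of all genes did or lay above them. Set against Mlkl-/- Ptpn6ΔPMN, the Casp8 deletion gave a log2 change of 0.49 in Ptpn22 (95% interval 0.08 to 0.91, edgeR adjusted p = 0.449), which was 0.21 without Mlkl-/- Ptpn6ΔPMN replicate 2 and 0.85 without replicate 1 of that group. Set against Ripk3-/- Mlkl-/- Ptpn6ΔPMN it gave 0.01 (95% interval -0.37 to 0.38, edgeR adjusted p = 0.998). The single Casp8ΔPMN Ptpn6ΔPMN library had 43.3 CPM, within the range of the other Ptpn6ΔPMN libraries.

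B cells also express Ptpn22, and B cell markers differed in direction between the backgrounds. The 12 B cell markers summed to 478 and 553 CPM in Mlkl-/- Ptpn6ΔPMN, against 714 to 1127 CPM in Mlkl-/-, and the 13 neutrophil markers to 125900 and 142000 CPM, against 83400 to 97380 CPM. In Ripk3-/- Ptpn6ΔPMN the B cell sum ran from 773 to 1619 CPM, against 1125 to 1592 CPM in Ripk3-/-, and in Ripk3-/- Mlkl-/- Ptpn6ΔPMN from 487 to 2218 CPM, against 751 to 1207 CPM in Ripk3-/- Mlkl-/-. Of the 12 markers, 2 lay above 0 with Ptpn6 deletion in Ripk3-/-, 1 in Mlkl-/- and 12 in Ripk3-/- Mlkl-/-, and none was called by edgeR. With the mean B cell marker level as a covariate, the log2 change of Ptpn22 was -0.45 in Ripk3-/- (edgeR adjusted p = 0.404), -0.87 in Mlkl-/- (edgeR adjusted p = 0.0314), -0.29 in Ripk3-/- Mlkl-/- (edgeR adjusted p = 0.752) and -0.53 averaged (edgeR adjusted p = 0.00537). It was thus nearer to 0 than without the covariate in Ripk3-/- Mlkl-/- and farther from 0 in the others.

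Markers of other cells moved in both directions with the averaged deletion. Of 12 tested T and NK cell markers 0 lay above 0, with a median log2 change of -0.34 and 4 at an unadjusted p under 0.05, and of 12 erythroid markers 0 lay above 0, with a median of -0.60 and 0 below that p. Of 13 monocyte and macrophage markers 4 lay above 0, with a median of -0.23 and 7 below that p. Of these markers Cd163, a scavenger receptor of macrophages, was called lower by edgeR, where 1.55% of all genes were called. Basophil and mast cell markers lay above 0 in 8 of 9, with a median of 0.26, and eosinophil markers in 5 of 9, with a median of 0.30. Neutrophil markers did so in 11 of 13, with a median of 0.19, and megakaryocyte markers in 3 of 7 tested, with a median of -0.15. At an unadjusted p under 0.05 there were 1 basophil and mast cell marker, 2 eosinophil, 3 neutrophil and 2 megakaryocyte markers. The median over all genes was 0.00, and 15.5% of all genes (2519 of 16206) had an unadjusted p under 0.05 by edgeR. The summed T and NK cell markers ran from 45.0 to 121 CPM in the 3 Ptpn6ΔPMN groups of that average, against 47.7 to 139 CPM in their controls. The part of these cell types in the lower Ptpn22 and Tec values was not tested.

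**Figure D2:**
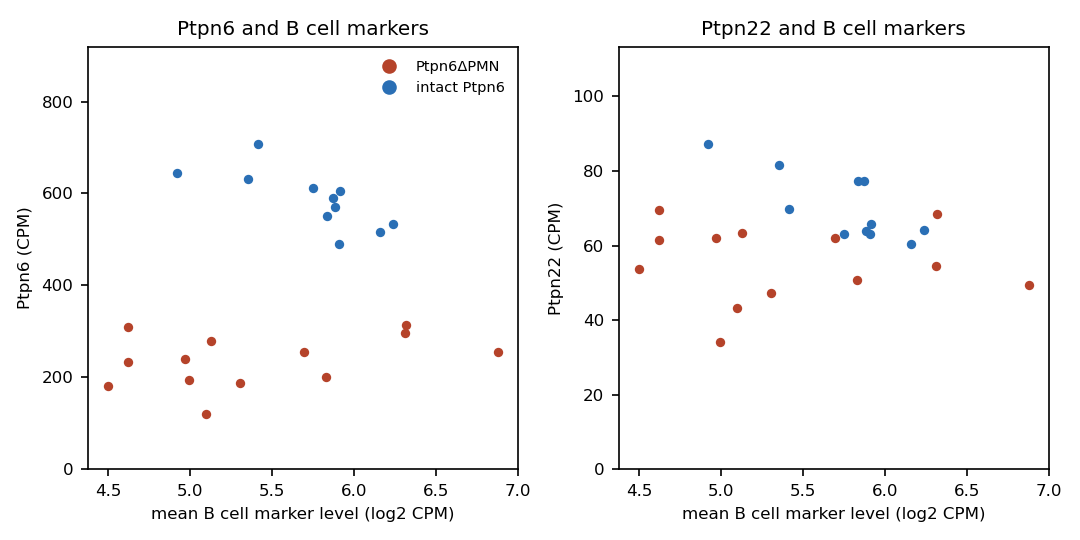
Level of Ptpn6 (left) and Ptpn22 (right) in CPM against the mean level of 12 B cell markers in log2 CPM, 1 point for each of the 24 assigned libraries, Ptpn6ΔPMN in red and intact Ptpn6 in blue. Ptpn6 separates the 2 sets at every B cell marker level, from 120.2 to 314 CPM deleted and from 490.1 to 707 CPM intact, and Ptpn22 overlaps between 60.4 and 69.5 CPM.

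Ptpn1 encodes PTP1B, which sits on the endoplasmic reticulum and acts on the insulin receptor and on JAK kinases, and lies at chr2:167932057-167979385 on the plus strand. It stood at 368, 592 and 406 CPM in Ripk3-/- Ptpn6ΔPMN libraries, against 346, 393 and 381 CPM in Ripk3-/- libraries. It stood at 568 and 565 CPM in Mlkl-/- Ptpn6ΔPMN libraries, against 373, 462 and 473 CPM in Mlkl-/- libraries. The groups overlapped in Ripk3-/- and did not in Mlkl-/-, and neither change passed: the log2 change was 0.29 (SE 0.16, edgeR adjusted p = 0.98) in Ripk3-/- and 0.38 (SE 0.17, edgeR adjusted p = 0.265) in Mlkl-/-, where 35.7% of all genes did not overlap. In Ripk3-/- it was 0.05 without Ripk3-/- Ptpn6ΔPMN replicate 2, the highest of all libraries. Without Ripk3 and Mlkl, Ptpn1 stood at 332, 428 and 448 CPM with Ptpn6ΔPMN, against 430.1 and 381 CPM without, which overlapped (log2 change -0.01, edgeR adjusted p = 0.991). With Casp8 deleted as well in Mlkl-/-, it stood at 464 and 408 CPM, and the log2 change against Mlkl-/- was 0.00 (95% interval -0.37 to 0.37, edgeR adjusted p = 1).

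In the background knockouts with intact Ptpn6, Ptpn1 averaged 436 ± 54.5 CPM in Mlkl-/- libraries (SD, n = 3) and 315 ± 29.8 CPM in wild-type libraries (n = 3), which is 0.47 in log2 units (SE 0.16, edgeR adjusted p = 0.13). In Ripk3-/- Mlkl-/- it stood at 430.1 and 381 CPM, against 301, 349 and 295 CPM in wild-type libraries (log2 change 0.37, edgeR adjusted p = 0.345). All wild-type libraries but 1 lay below all other libraries with intact Ptpn6. Ptpn1 did not overlap between wild-type and Mlkl-/- or Ripk3-/- Mlkl-/-, as held for 31.3% and 40.2% of all genes, and it overlapped in Ripk3-/-. None of these changes passed.

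Ptpn12 encodes PTP-PEST, which acts on adhesion proteins such as paxillin and p130Cas, and lies at chr5:20986645-21055911 on the minus strand. It stood at 168, 235 and 149 CPM in Ripk3-/- Ptpn6ΔPMN libraries, against 161, 181 and 159 CPM in Ripk3-/- libraries. It stood at 241 and 218 CPM in Mlkl-/- Ptpn6ΔPMN libraries, against 154, 219 and 214 CPM in Mlkl-/- libraries. The groups overlapped in both, and the averaged log2 change was 0.05 (95% interval -0.19 to 0.29, edgeR adjusted p = 0.881). Replicates of 1 group differed up to 1.57-fold.

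Ptprc (CD45, chr1:138062861-138175708, minus strand) is the receptor phosphatase that removes the inhibitory phosphate of Src family kinases in leukocytes. It stood at 1562, 1748 and 1427 CPM in Ripk3-/- Ptpn6ΔPMN libraries, against 1483, 1567 and 1508 CPM in Ripk3-/- libraries. It stood at 1967 and 1946 CPM in Mlkl-/- Ptpn6ΔPMN libraries, against 1582, 1950.2 and 2015 CPM in Mlkl-/- libraries. Without Ripk3 and Mlkl it stood at 1467, 1344 and 2070.0 CPM with Ptpn6ΔPMN, against 2001 and 1660.1 CPM without. The groups overlapped in all 3 backgrounds, and the averaged log2 change was -0.01 (95% interval -0.21 to 0.19, edgeR adjusted p = 0.975).

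The spread of CD45 mRNA ran across genotypes. Among the 24 assigned libraries, 6 stood above the next by a step, from 1946 to 2070.0 CPM against 1793 CPM, and they came from 4 groups with Mlkl-/- of which some had deleted and some intact Ptpn6. The same 6 libraries held Ptpn12 at 214 to 241 CPM, all within its 8 highest values. The step depends on the scaling. Before it, Ripk3-/- Ptpn6ΔPMN replicate 1, which is not among the 6, had 40533 Ptprc counts (TMM factor 1.185). Mlkl-/- Ptpn6ΔPMN replicates 1 and 2, which are among them, had 36456 and 37887 (0.7995 and 0.8591). The part of scaling in this pattern was not tested. In Mlkl-/- against wild-type, Ptprc had a log2 change of 0.36 (95% interval 0.04 to 0.69, edgeR adjusted p = 0.203), which did not pass.

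Ptprj (CD148, chr2:90429754-90580647, minus strand) is a second receptor phosphatase of Src family kinases in myeloid cells. It stood at 158, 255 and 218 CPM in Ripk3-/- Ptpn6ΔPMN libraries, against 194, 201 and 224 CPM in Ripk3-/- libraries. It stood at 269 and 264 CPM in Mlkl-/- Ptpn6ΔPMN libraries, against 209, 193 and 233 CPM in Mlkl-/- libraries. The lowest and the highest of the 24 values were both in deleted libraries, and the groups overlapped in Ripk3-/- but not in Mlkl-/-, as for 35.7% of all genes there. The log2 change was 0.33 in Mlkl-/- (95% interval 0.01 to 0.65, edgeR adjusted p = 0.253) and 0.12 averaged (95% interval -0.06 to 0.30, edgeR adjusted p = 0.534). Neither passed.

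Inpp5d (SHIP1, chr1:87620312-87720507, plus strand) is the lipid phosphatase of blood cells. It stood at 327, 372 and 319 CPM in Ripk3-/- Ptpn6ΔPMN libraries, against 339.9, 337 and 349 CPM in Ripk3-/- libraries. It stood at 403 and 369.8 CPM in Mlkl-/- Ptpn6ΔPMN libraries, against 334, 376 and 384 CPM in Mlkl-/- libraries. All these groups overlapped, and the 24 values lay within 1.29-fold, the narrowest range of the 9 genes. Its averaged log2 change was 0.01 (95% interval -0.12 to 0.14, edgeR adjusted p = 0.955). In Ripk3-/- Mlkl-/- Casp8ΔPMN Ptpn6ΔPMN it stood at 389.5 and 384 CPM, against 361 and 376 CPM in Ripk3-/- Mlkl-/-, higher without overlap, as 40.1% of all genes were or were lower, and not called (log2 change 0.07, edgeR adjusted p = 0.946).

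Inppl1 (SHIP2, chr7:101822632-101838229, minus strand) is the broadly expressed relative of SHIP1 and rested on 47 to 280 estimated counts per library. It stood at 6.13, 4.83 and 9.86 CPM in Ripk3-/- Ptpn6ΔPMN libraries, against 8.12, 4.63 and 6.33 CPM in Ripk3-/- libraries. It stood at 2.97 and 4.62 CPM in Mlkl-/- Ptpn6ΔPMN libraries, against 5.41, 5.17 and 2.49 CPM in Mlkl-/- libraries. Without Ripk3 and Mlkl it stood at 10.8, 9.24 and 2.29 CPM with Ptpn6ΔPMN, against 4.28 and 7.05 CPM without, so replicates of 1 genotype spanned nearly the whole range of the gene. The averaged log2 change was 0.11 with a 95% interval from -0.47 to 0.68 (edgeR adjusted p = 0.903), the widest averaged interval of the members. The averaged Ptpn22 change of -0.50 lies just below this interval, and a rise of that size lies inside it. Without Ripk3-/- Mlkl-/- Ptpn6ΔPMN replicate 3, whose Inppl1 was the lowest of all, the F test among the 5 Ptpn6ΔPMN groups called Inppl1 (edgeR adjusted p = 0.0331). That fit called 2860 genes, against 4 with all libraries.

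**Figure D3:**
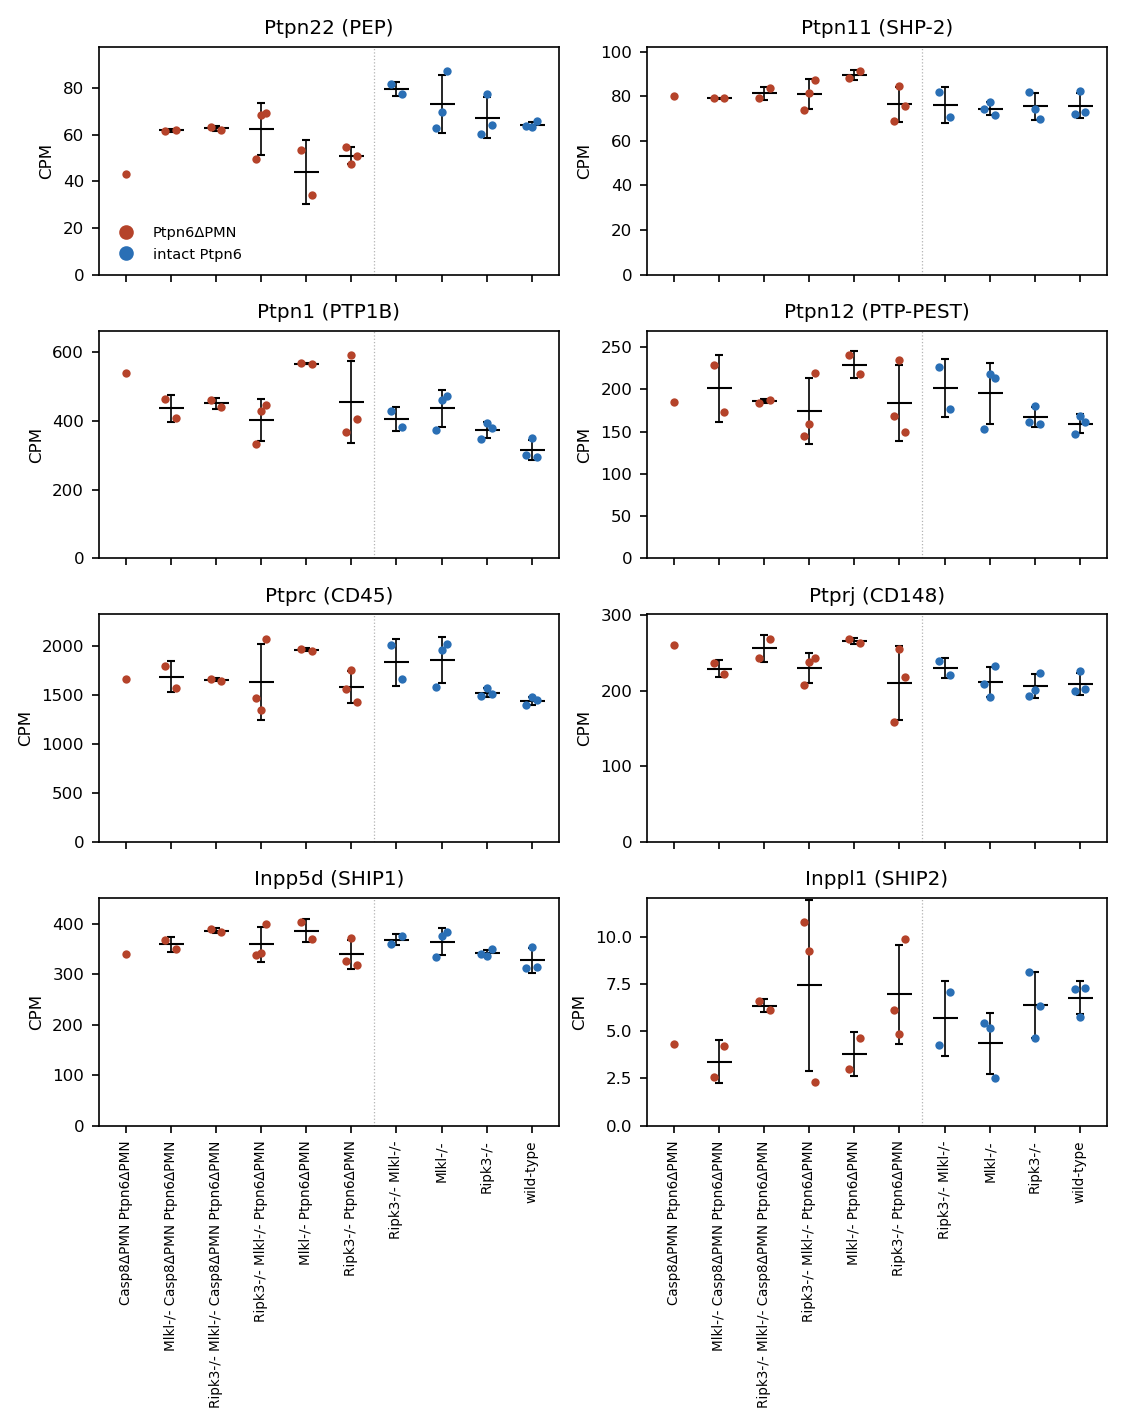
Level of the other 8 phosphatases in CPM (vertical axes, each from 0) in the 24 assigned libraries by genotype group, Ptpn6ΔPMN groups left of the dotted line and groups with intact Ptpn6 right of it. Points are libraries and bars the mean and SD of groups with 2 or 3; Inpp5d stays within 1.29-fold over all libraries, and Inppl1 ranges from 2.29 to 10.8 CPM.

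Side by side over the 9 genes, the median log2 change was 0.03 in Ripk3-/-, 0.08 in Mlkl-/- and -0.04 in Ripk3-/- Mlkl-/-, beside 0.00, -0.04 and 0.03 over all genes tested. With Casp8 and Ptpn6 deleted it was -0.02 in Mlkl-/- and 0.07 in Ripk3-/- Mlkl-/-, beside -0.01 and -0.01 over all genes. Ptpn6 and Ptpn22 were the members below 0 in each of these 5 comparisons, which share controls within Mlkl-/- and within Ripk3-/- Mlkl-/-. The remaining 7 had no called change in any of them.

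**Figure D4:**
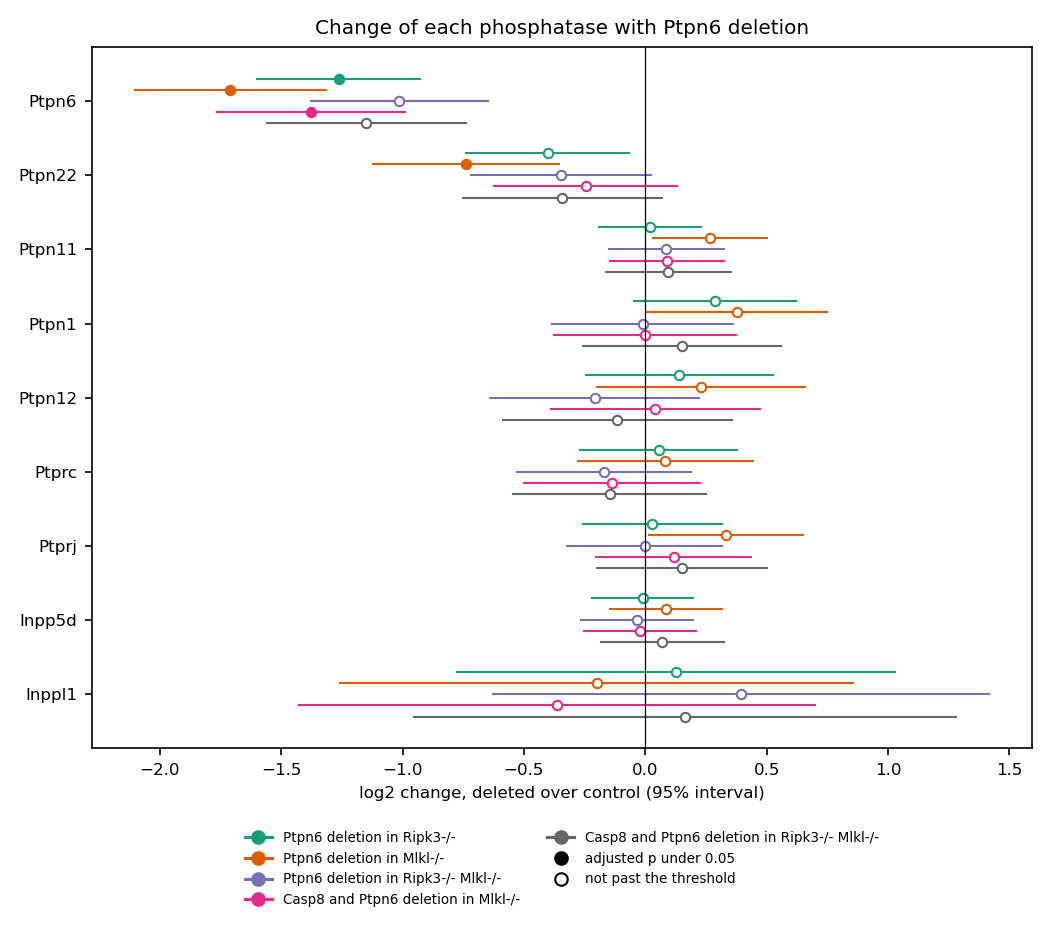
Log2 change of each of the 9 phosphatases (rows) in 5 comparisons of deleted with intact Ptpn6 (colours), with 95% intervals from the fit across all genes; filled points passed an edgeR adjusted p of 0.05. Ptpn6 lies between -1.71 and -1.01 and Ptpn22 between -0.74 and -0.25, while the intervals of Inppl1 are the widest.

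The knockouts of Ripk3 and Mlkl were then compared with wild-type, all with intact Ptpn6, to see whether the backgrounds themselves changed the set. In Ripk3-/- neutrophils 0 of 9 members passed, against 0.228% of all genes (37 of 16206). In Mlkl-/- 0 of 9 passed, against 1.16% (188 of 16206), and in Ripk3-/- Mlkl-/- 0 of 9 passed, against 1.04% (169 of 16206). At an unadjusted p under 0.05 by edgeR there were 0, 2 and 1 members in these comparisons, among 1111, 3145 and 2312 genes, and DESeq2 called 99, 802 and 447 genes. An F test of any difference among the 4 intact groups also called 0 of 9, against 0.481% of all genes (78 of 16206, with 1835 below 0.05 before adjustment and 456 by DESeq2). The log2 change of Ptpn6 was -0.12 in Ripk3-/- (95% interval -0.45 to 0.21), 0.04 in Mlkl-/- (95% interval -0.29 to 0.37) and -0.01 in Ripk3-/- Mlkl-/- (95% interval -0.38 to 0.36).

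The wider families were read from lists of gene names, which were chosen with earlier results of these data known. Of 15 tested non-receptor tyrosine phosphatases, 2 passed with Ptpn6 deletion averaged over the backgrounds, and these were Ptpn6 and Ptpn22, both down, where 1.55% of all genes passed (251, but 7 without Mlkl-/- Ptpn6ΔPMN replicate 2). Their median log2 change was -0.03, beside 0.00 over all genes. Ptpn7, a leukocyte phosphatase of MAP kinases, was the 1 that passed in Mlkl-/- against wild-type, where 1.16% of all genes did, at 31.3 ± 3.89 CPM against 47.4 ± 5.5 CPM (SD, n = 3 each). It fell by 0.60 there (SE 0.13, edgeR adjusted p = 0.0318), and the call was lost without wild-type replicate 1 or 2 or Mlkl-/- replicate 2 or 3 (edgeR adjusted p = 0.121 to 0.199). Of 12 tested receptor phosphatases, 0 passed edgeR's test in any of the comparisons above of deleted with intact Ptpn6 or of a knockout with wild-type. For the averaged deletion, 2 of the 12 had an unadjusted p under 0.05 by edgeR, beside 15.5% of all genes.

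Among genes of phosphoinositide signalling, where SHIP1 acts, the falls were small. Inpp5e, a 5-phosphatase of the primary cilium, was the 1 of 14 tested phosphoinositide phosphatases that passed with the averaged deletion, where 1.55% of all genes did, and fell by 0.24 (SE 0.058, edgeR adjusted p = 0.0426). It averaged 28.0 ± 0.976 CPM in Mlkl-/- Ptpn6ΔPMN (SD, n = 2) against 35.1 ± 2.71 CPM in Mlkl-/- (n = 3). Its call was lost with DESeq2 size factors, without a filter, in a fit of those libraries alone and without any of 11 single libraries (edgeR adjusted p = 0.0514 to 0.21). Tec, a cytoplasmic tyrosine kinase that binds the lipid that SHIP1 consumes, was the 1 of 16 phosphoinositide 3-kinase genes and targets that passed in the same comparison.

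Tec ranged from 22.2 to 28.1 CPM in Ripk3-/- Ptpn6ΔPMN libraries, against 36.1 to 39.7 CPM in Ripk3-/- libraries. It ranged from 24.2 to 30.7 CPM in Mlkl-/- Ptpn6ΔPMN, against 36.1 to 38.3 CPM in Mlkl-/-, and from 29.5 to 30.3 CPM in Ripk3-/- Mlkl-/- Ptpn6ΔPMN, against 38.9 to 39.4 CPM in Ripk3-/- Mlkl-/-. No pair of groups overlapped, which held for 9.22%, 35.7% and 13.4% of all genes in these comparisons, and Tec fell by 0.47 averaged over the backgrounds (SE 0.074, edgeR adjusted p = 0.00593). Without Mlkl-/- Ptpn6ΔPMN replicate 2 the edgeR adjusted p was 0.0524 (log2 change -0.42).

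With Ripk3 and Mlkl both knocked out, and Ptpn6 intact, Pik3ca and Gab2 rose against wild-type, where 1.04% of all genes were called. Pik3ca, a catalytic subunit of phosphoinositide 3-kinase, averaged 102 ± 7.23 CPM in Ripk3-/- Mlkl-/- (SD, n = 2) and 72.2 ± 3.84 CPM in wild-type (n = 3), higher by 0.49 in log2 units (SE 0.095, edgeR adjusted p = 0.0178). The call was lost without wild-type replicate 1 or 3 or Ripk3-/- Mlkl-/- replicate 2 (edgeR adjusted p = 0.12, 0.0589 and 0.224) and without a filter (0.0533). Gab2, an adaptor that recruits SHP-2, averaged 84.2 ± 4.52 CPM in Ripk3-/- Mlkl-/- and 47.9 ± 0.837 CPM in wild-type, higher by 0.81 in log2 units (SE 0.18, edgeR adjusted p = 0.0358). That call was lost without any single library of the comparison (edgeR adjusted p = 0.102 to 0.178). It was 1 of 17 tested partners and adaptors of these phosphatases, of which 0 passed edgeR's test with the averaged Ptpn6 deletion. There, 1 of the 17 had an unadjusted p under 0.05 by edgeR, beside 15.5% of all genes.

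Genes with a pattern most like Ptpn6 were ranked by Pearson correlation of log2 CPM among genes of at least 5 CPM. Over all 24 assigned libraries the most alike were Itga8, Zbtb8b, Fut4, Eef2k and Slc37a2 and the most opposed were Ap1s1, Mpnd, Steap4, Mapk6 and Lipg, among 8515 genes. Here the deleted and intact libraries form separate clusters, so no coefficient is given. Over the 11 libraries with intact Ptpn6 the most alike were Fbxw11, Mlx, Tor1a, Dfna5 and Pitpnb and the most opposed Srsf7, Tep1, Rbm14, Ercc5 and Nf2, among 8552 genes. These are descriptions of a ranking, and the libraries share genotype groups.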

How the data were processed

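The authors deposited 1 table of estimated counts per gene, with 25 library columns; the submitters' processing notes name Salmon 0.14.1, GRCm38.p6 and DESeq2. The step from transcripts to genes is not given in the sources used here. The values were rounded to whole numbers. The labels do not say that replicates came from separate mice, so p-values measure the spread between these samples.

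A single edgeR 4.0.16 model (R 4.3.3) took the 23 libraries of the 9 replicated groups (TMM scaling, filterByExpr with minimum count 10 and minimum total 15, quasi-likelihood F test, 14 residual degrees of freedom). Adjusted p-values follow Benjamini and Hochberg over 16206 genes, with a threshold of 0.05, in each of 14 comparisons. The 95% intervals come from the same fit but use the 14 residual degrees of freedom alone. They are therefore slightly wider than the F tests, which also borrow information across genes. The Casp8ΔPMN Ptpn6ΔPMN library was described without a test, and the library with conflicting labels was left out. Log2 CPM used a pseudocount of 0.5.

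Alternatives were DESeq2 1.42.0 (tests, and its size factors in edgeR), no filter, only the libraries compared, a replicate block, a B cell marker covariate and leaving out each library. No pair of libraries agreed within sampling noise (chi-square per gene at least 11.09 over 253 pairs). The pipeline was tested on simulated data.

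The members and lists were chosen with earlier results of these data known. The rule for named genes took the members, the other targeted genes, up to 4 called genes per pathway list and comparison, 5 tested neighbours of Ptpn6 on each side, and the 5 genes most and least like Ptpn6. The alternatives for called list genes were added after seeing the data. Annotation and coding sequences were from GENCODE vM21 (GRCm38), the build of the files. Gene order for the neighbours came from RefSeq, which matched 92.6% of tested symbols. Figures were drawn with matplotlib 3.10.9.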

Additional observations from a re-analysis of the deposited data

Results flagged for a closer look

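The Casp8ΔPMN Ptpn6ΔPMN library, which has no replicate and entered no test, held 2 of 9 members above every library with intact Ptpn6, as it did 17.8% of all genes tested. Ptpn1 stood at 540.3 CPM, against at most 473 CPM in the 11 libraries with intact Ptpn6. Ptprj stood at 261.5 CPM there, against at most 240.1 CPM. Both values lie within the range of the other Ptpn6ΔPMN libraries, which reach 592 CPM for Ptpn1 and 269 CPM for Ptprj.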

How the results depend on the processing

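Of 1710 values of the 9 phosphatases under alternatives, 1692 stayed on the same side of the threshold, 11 lost a call and 7 gained one. No called change turned its sign. The values come from 126 results, some of them F tests without a sign. Of these results, 42 changed sign under at least 1 alternative, each time uncalled. The cause of each change was not tested. When libraries outside a comparison were dropped from its fit, 0 members were called in Ripk3-/- (Ptpn6 log2 change -1.25, edgeR adjusted p = 0.38), 1 in Mlkl-/- and 1 for the average. With DESeq2 size factors 1 member was called in Mlkl-/-. In Ripk3-/- Mlkl-/-, Ptpn6 became the 1 member called without a filter (-1.01, edgeR adjusted p = 0.0228) and by DESeq2 (-1.02). With Casp8 and Ptpn6 deletion in Ripk3-/- Mlkl-/-, it became the 1 member called without a filter (-1.14, edgeR adjusted p = 0.0244), by DESeq2 (-1.15) and with the B cell marker covariate (-1.16, edgeR adjusted p = 0.0375).

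Leaving out single libraries, the members called ran from 1 to 2 in Mlkl-/-, from 0 to 1 in Ripk3-/- Mlkl-/-, from 1 to 2 for the average, from 0 to 1 for Casp8 and Ptpn6 deletion in Mlkl-/- and from 0 to 1 among the 5 Ptpn6ΔPMN groups. The log2 change of Ptpn6 ran from -1.11 to -0.91 in Ripk3-/- Mlkl-/- and from -1.52 to -1.26 for Casp8 and Ptpn6 deletion in Mlkl-/-.

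Counts of all genes called moved far more. By DESeq2's test, against edgeR's, they were 38 against 3 in Ripk3-/-, 765 against 244 in Mlkl-/-, 669 against 251 for the average and 378 against 3 for Casp8 and Ptpn6 deletion in Mlkl-/-. Fits of the compared libraries alone gave 22 against 251 for the average, and 182, 891 and 833 against 37, 188 and 169 for Ripk3-/-, Mlkl-/- and Ripk3-/- Mlkl-/- against wild-type. The last 3 ran from 23 to 38, from 38 to 589 and from 19 to 85 when single libraries were left out, the lowest without wild-type replicate 1, again without wild-type replicate 1, and without Ripk3-/- Mlkl-/- replicate 2.

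Replicate numbers were not shown to pair the samples. Where groups shared 3 numbers, at least 1 correlation of same-numbered deviations was 0.1 or less. Over all comparisons these correlations ran from -0.354 to 0.364, and groups of 2 or 3 libraries cannot exclude pairing. With a replicate block, 1 member was called in Mlkl-/-, where Ptpn22 had a log2 change of -0.70 (edgeR adjusted p = 0.0605). Ptpn6 had -1.26 in Ripk3-/-, -1.72 in Mlkl-/- and -1.33 averaged, with edgeR adjusted p of 0.00361, 0.000831 and 4.26e-06. Among the list genes, Inpp5e had an edgeR adjusted p of 0.0519 and Gab2 one of 0.0637 with the block. Depth limits Inppl1 most, at 47 to 280 counts per library.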

Other observations

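The library that the labels place in no group had Ptpn6 at 582 CPM, within the range of libraries with intact Ptpn6, and Ripk3 at 0.0878 CPM and Mlkl at 0.747 CPM. Its Ptpn22 was 69.0 CPM, its Ptpn1 411 CPM and its Ptprc 1696 CPM.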
